A study of Mus musculus with 10 samples.

Results

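Conventional dendritic cells type 1 (cDC1s) of the spleen from Zeb2 Id2 DKO mice were compared with cDC1s from Zeb2 KO mice, to describe what the further loss of Id2 changes where Zeb2 is already deleted. Samples were chosen by their labelled genotype alone: 2 Zeb2 Id2 DKO and 3 Zeb2 KO arrays out of 10, the others being 3 WT and 2 Nfil3 Zeb2 DKO arrays. Zeb2 deletion is shared by both groups compared, so Id2 is the labelled difference between them, and no array of an Id2 deletion alone was analysed here. The labels give genotype, tissue and cell type. The alleles, the cells in which they act, the sort gate, the animals' ages and whether replicates came from separate animals are not given in the sources used here, so the p-values reflect the spread among these arrays, which may be technical. Total RNA of sorted cells was amplified and hybridised to Affymetrix arrays, and levels are log2 of the deposited RMA intensities (RMA is a background correction, normalization and summary of the probes of each gene). Since RNA was measured in bulk, fewer cells of a type and less RNA per cell cannot be told apart.

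Id2 is an inhibitor of DNA binding: it pairs with the E proteins Tcf3, Tcf4 and Tcf12 and keeps them off the E-box sequences in DNA. Among dendritic cells Id2 marks the conventional lineage, whereas plasmacytoid dendritic cells (pDCs), the specialised producers of type I interferon, depend on Tcf4. Zeb2 is a zinc finger repressor that also binds E-boxes and is known to hold back Id2 in dendritic cell progenitors, so that cDC1 development without Id2 can be asked about where Zeb2 is absent.

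The labels were checked on the targeted genes first. Id2 stood at 5.01 and 4.98 log2 in the Zeb2 Id2 DKO arrays and at 10.08, 9.89 and 10.29 in Zeb2 KO. Both double-knockout arrays lay far below every Zeb2 KO array, a 34.1-fold difference (log2 -5.09, 95% confidence interval -5.36 to -4.83, limma adjusted p = 1.01e-08) and the largest of all 19938 genes tested. Zeb2 did not check the deletion that both groups share. It stood at 6.78 and 6.82 in Zeb2 Id2 DKO, 6.10, 6.27 and 5.40 in Zeb2 KO and 6.0, 5.93 and 6.30 in WT. Zeb2 KO differed from WT by -0.16 on the log2 scale (limma adjusted p = 0.929), so this probe set was not clearly lower in Zeb2 KO. The log2 difference of 0.88 between the double knockout and Zeb2 KO had an adjusted p of 0.166. Nfil3, a basic leucine zipper repressor upstream of Zeb2, differed by 0.03 (adjusted p = 0.994).

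One array stands apart. Zeb2 KO replicate 3 correlated with the other Zeb2 KO arrays at 0.9862 and 0.9856 over all genes, where those correlated at 0.9958 with each other and the Zeb2 Id2 DKO arrays at 0.9966. Median intensity was 76.3 to 82.9 in the Zeb2 KO and 77.4 to 79.0 in the Zeb2 Id2 DKO arrays, and the half-width of the 95% interval of a log2 difference had a median of 0.24, with the number of arrays as the limit. Results were therefore computed with every array and with each of the 10 arrays left out in turn.

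Few genes changed between the genotypes, and most of those rose. In a limma model over all 10 arrays 99 of 19938 genes passed an adjusted p of 0.05 (0.497%): 73 rose (0.366%) and 26 fell (0.13%). Of these 35 rises and 8 falls reached 2-fold (0.216% together). An unadjusted p under 0.05 was seen in 1465 genes, and the median over all genes was -0.01. All 99 genes had separate ranges in Zeb2 Id2 DKO and Zeb2 KO (20.2% of all genes did), which choosing them by p nearly fixes, so nothing is read from it. Without Zeb2 KO replicate 3 the count was 148 (102 rises and 46 falls) and held 97 of the 99 genes. It was 53 without Zeb2 KO replicate 2, 25 without Zeb2 Id2 DKO replicate 1 and 33 without replicate 2, so the number of calls rests on few arrays.

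The calls that held with any of the 10 arrays left out were 15. Carmil1, Lrrc4c, Ifit1, Ifit2, Ifit3, Adgrl2, Siglech, Slfn1, Oasl2, Ank1, the adenylate kinase gene Ak8 and the helix-loop-helix gene Olig1 rose in each of these fits, and Id2, Smad3 and Frmd4b fell.

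**Figure D1:**
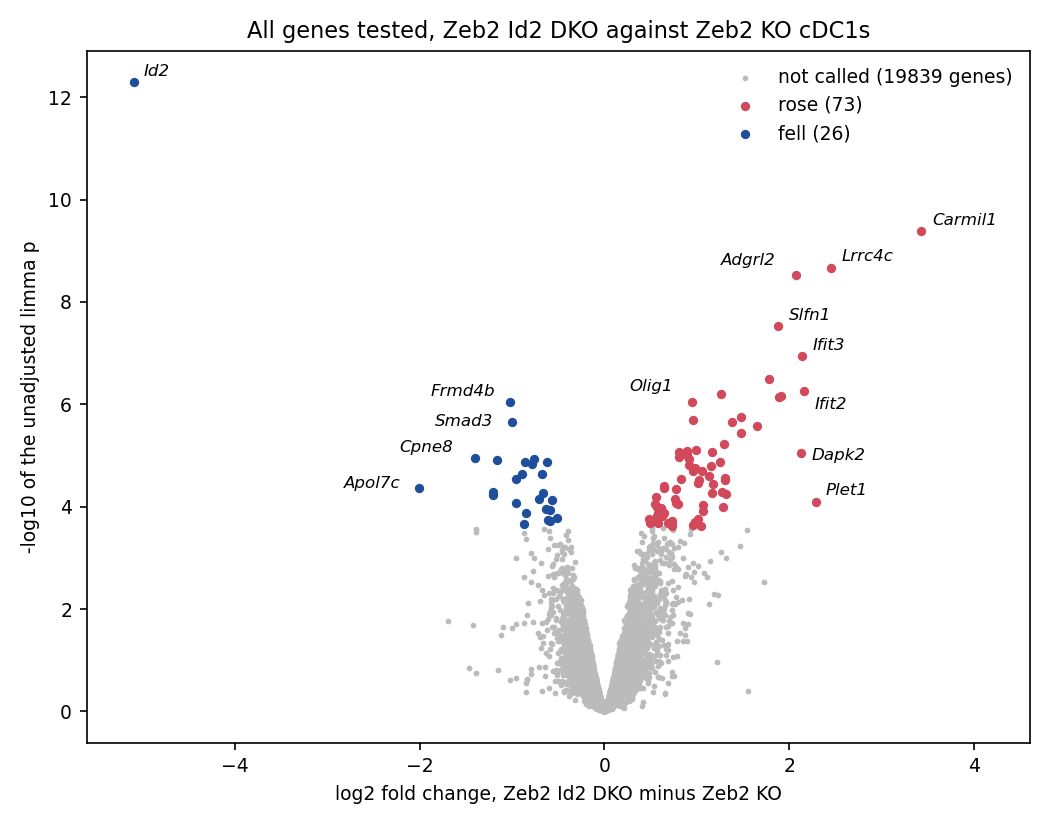
Each point is 1 of the genes tested, with the log2 fold change of Zeb2 Id2 DKO over Zeb2 KO on the x axis and -log10 of its unadjusted limma p on the y axis; red points rose (73) and blue points fell (26). Id2 lies alone at the left with a log2 fold change of -5.09, and Carmil1 at the far right with 3.43.

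The largest rise of all genes tested was in Carmil1, which encodes a linker that binds actin capping protein at the leading edge of moving cells (probe set 10408280). It stood at 10.21 and 10.39 in Zeb2 Id2 DKO and at 6.85, 7.17 and 6.59 in Zeb2 KO, 10.8-fold higher (log2 3.43, 3.08 to 3.77, adjusted p = 4.09e-06). The WT arrays (7.40, 7.60 and 7.60) and the Nfil3 Zeb2 DKO arrays (7.58 and 7.34) lay above every Zeb2 KO array and far below the double knockout without Id2, which was 2.76 above WT on the log2 scale (adjusted p = 1.84e-05).

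Cell adhesion molecules known from synapses were among the next largest rises. Lrrc4c, the netrin-G1 ligand, stood at 6.13 and 5.68 against 3.31, 3.52 and 3.53 in Zeb2 KO (5.48-fold, adjusted p = 1.42e-05). Its WT levels, 3.51 to 3.54, are near the bottom of the array's range, as are those of Zeb2 KO. Adgrl2, the adhesion receptor latrophilin 2, stood at 8.91 and 8.84 against 6.81, 6.79 and 6.80 (4.22-fold, log2 2.08, 1.82 to 2.33, adjusted p = 1.5e-05). Adgrl2 is measured by 8 probe sets, all higher in the double knockout, whose other log2 differences ran from 0.17 to 1.92. Its relative Adgrl3, latrophilin 3, moved the opposite way, at 5.31 and 5.33 against 6.56, 6.53 and 6.48 in Zeb2 KO (2.3-fold lower, log2 -1.20, adjusted p = 0.0193). The Adgrl3 call was lost with any array of either group left out except Zeb2 KO replicate 3, the largest adjusted p being 0.203. A further pair of adhesion molecules fell. Adam22, a catalytically inactive metalloprotease relative that serves as a ligand receptor, stood at 6.78 and 6.57 against 7.83, 7.51 and 7.56 (log2 -0.96, adjusted p = 0.0124), and Cadm1, a nectin-like molecule used to mark cDC1s, at 10.45 and 10.28 against 11.00, 10.89 and 11.19 (log2 -0.66, adjusted p = 0.0187). Both calls were lost without either double-knockout array (adjusted p up to 0.186 and 0.261). In all, 2 of 42 adhesion, latrophilin and integrin genes rose and 3 fell (0.366% and 0.13% of all genes), with a median log2 difference of 0.07 (14 had an unadjusted p under 0.05). The list was drawn up with earlier results of these data known, so these shares are a description and no test of enrichment.

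**Figure D2:**
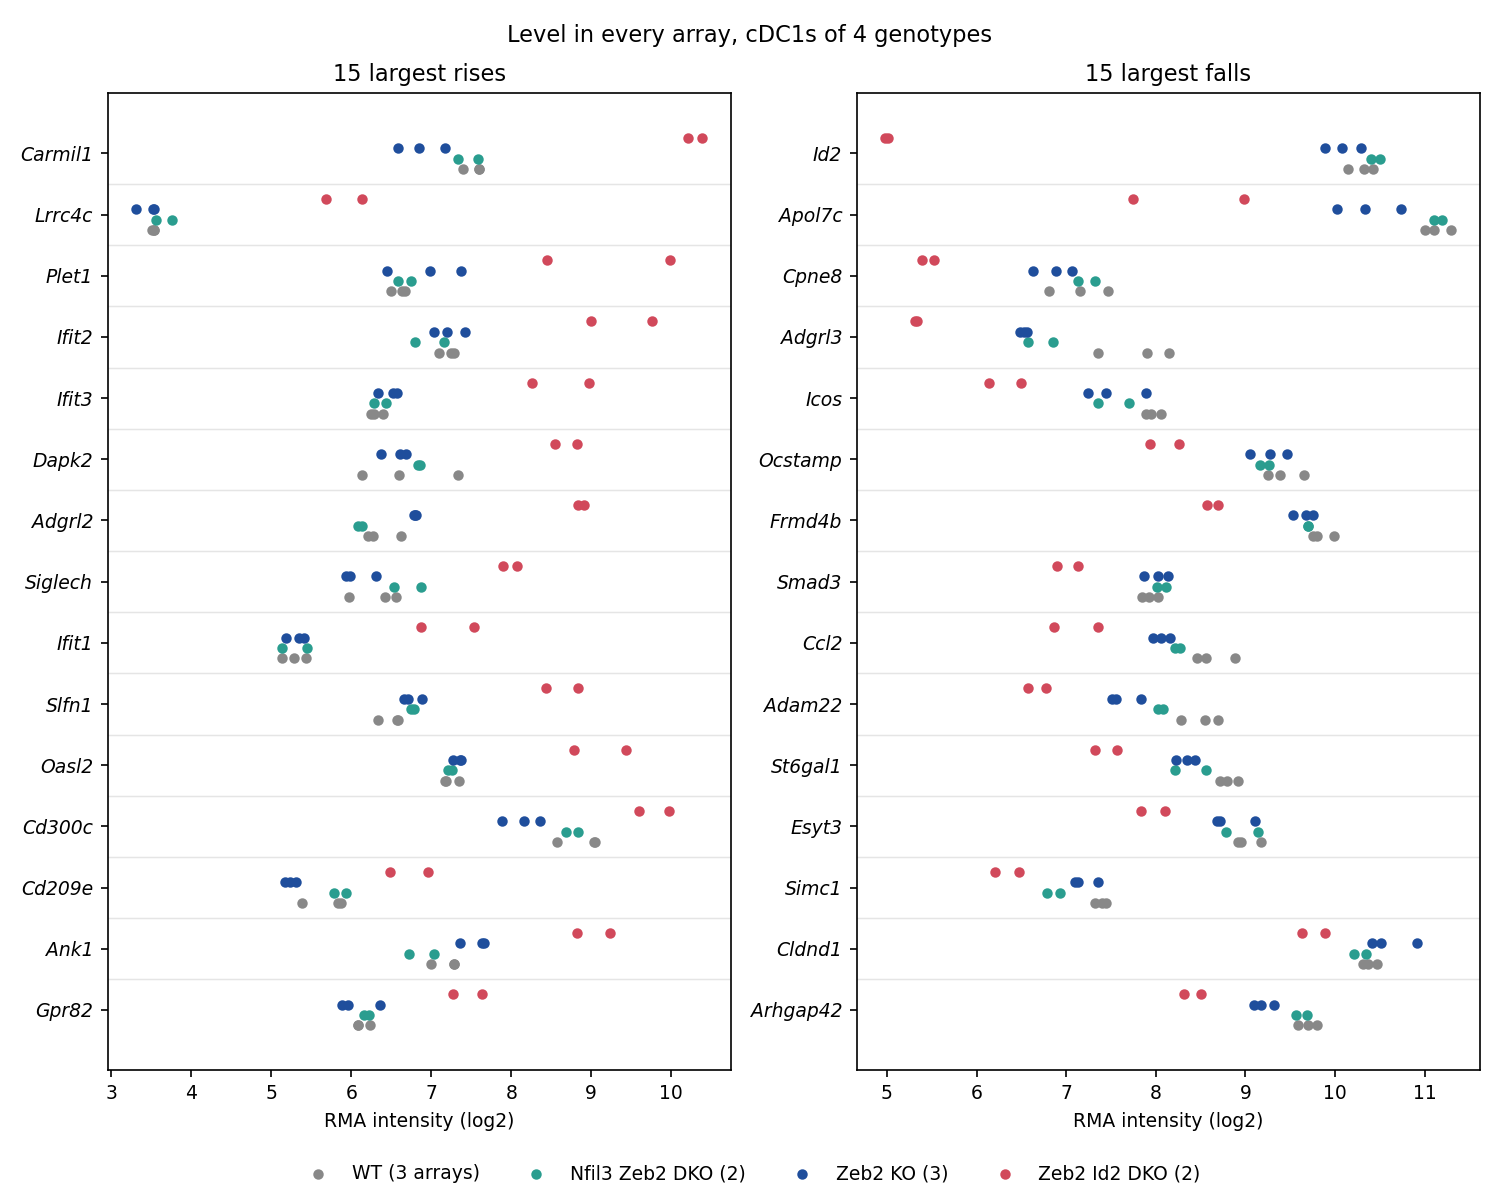
The log2 RMA intensity of the 15 genes with the largest rises (left) and the 15 with the largest falls (right) among called genes, predicted genes left out, is plotted on the x axis for every array, 1 point an array, coloured by genotype; probe sets differ in brightness, so only points in 1 row compare. Both red Zeb2 Id2 DKO points lie outside the range of the 3 blue Zeb2 KO points in every row, as the choice of these genes required.

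Genes of the interferon response rose together. Of 39 measured interferon-stimulated genes 18 rose and none fell (32 had an unadjusted p under 0.05, and 0.366% of all genes rose), all 39 had a positive difference (46.5% of all genes did), and the median log2 difference was 0.76. These genes encode antiviral effectors and sensors that type I interferon switches on. Ifit2, which binds foreign RNA, stood at 9.0 and 9.76 in Zeb2 Id2 DKO and at 7.42, 7.04 and 7.20 in Zeb2 KO (4.47-fold, log2 2.16, 1.72 to 2.61, adjusted p = 0.00128). Its partner Ifit3 stood at 8.26 and 8.97 against 6.52, 6.34 and 6.57 (4.4-fold, adjusted p = 0.000376), and Ifit1 at 6.87 and 7.53 against 5.41, 5.35 and 5.18 (3.71-fold, adjusted p = 0.00128). In all 3 Ifit genes the Zeb2 KO arrays lay together with WT and Nfil3 Zeb2 DKO, and both double-knockout arrays lay above them all, with replicate 2 the higher.

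Slfn1, a member of the schlafen family that restrains T cell growth, stood at 8.43 and 8.84 against 6.89, 6.66 and 6.71 (3.68-fold, adjusted p = 0.00012). Oasl2, of the oligoadenylate synthetase family, stood at 8.78 and 9.44 against 7.36, 7.37 and 7.27 (3.42-fold, adjusted p = 0.000902). These and the 3 Ifit genes, 5 of the 18, stayed called with any of the 10 arrays left out, and each of the other 13 was lost at least once (adjusted p up to 0.414). Smaller rises were seen in the RNA-activated synthetases Oas3 (log2 1.16) and Oas2 (0.98), in their relative Oasl1 (1.17), in Rsad2, which encodes the antiviral radical enzyme viperin (1.32), and in its neighbour Cmpk2 (1.18). The other members that rose were Ifi203, Rtp4, Isg20, the virus tether Bst2, the feedback inhibitor Usp18, Herc6, Stat2 and Parp14, by 0.57 to 1.16 on the log2 scale with adjusted p from 0.0186 to 0.0488. Stat2, which carries the interferon signal to the nucleus, stood at 10.80 and 10.82 against 10.32, 10.23 and 9.95 (adjusted p = 0.0326).

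The double-knockout replicates differed in the size of the interferon shift. The mean of the 39 genes lay 0.69 above the Zeb2 KO mean in replicate 1 and 1.12 above it in replicate 2, while the Zeb2 KO arrays lay at 0.13, 0.02 and -0.15, WT at -0.07, -0.15 and -0.08 and Nfil3 Zeb2 DKO at -0.26 and -0.14. Replicate 2 was above replicate 1 in 38 of the 39 genes, against 45.7% of all genes and 18 of the 55 other rises. Without replicate 2, 5 interferon-stimulated genes rose, with a median of 0.59, and without replicate 1, 14 rose with a median of 1.0. Without Zeb2 KO replicate 2 the number was 8, and without Zeb2 KO replicate 3 it was 19. With 1 WT or Nfil3 Zeb2 DKO array left out it was 11 to 14, and with only the 5 arrays of both groups it was 5. The number thus also rests on the spread taken from the other genotypes.

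In a separate list of interferon sensing and signalling 0 of 18 genes passed in the limma fit, and the median difference was 0.01. Of these 18 genes 5 had an unadjusted p under 0.05, against 1465 of all 19938 genes, and 0.497% of all genes passed. Stat2 and Usp18, which act in signalling and rose, are counted in the interferon-stimulated list and not in this one. Irf1, a transcription factor, had a log2 difference of -0.56, the signalling inhibitor Socs3 of -0.56 (adjusted p = 0.266) and the receptor subunit Ifnar1 of 0.39. Markers of neutrophils, which differ strongly between arrays, were set beside the interferon genes. Summed neutrophil intensity ran from 9672 to 20062 in Zeb2 Id2 DKO and from 10662 to 20913 in Zeb2 KO, and 0 of 21 neutrophil genes passed (2 at an unadjusted p under 0.05), with a median of -0.06. Mpo and Ctsg, the neutrophil genes with the smallest p, had 0.89 (adjusted p = 0.654) and 0.63 (0.402), and 7 of the 21 differences were positive. Relative to the Zeb2 KO mean, the neutrophil list lay at -0.38 in Zeb2 Id2 DKO replicate 1 and at 0.51 in replicate 2. The interferon-stimulated list lay at 0.69 and 1.12 in the same arrays. The part of neutrophils in the interferon result was not tested. Summed intensity of the erythroid list was 4218 to 4956 in Zeb2 Id2 DKO and 2927 to 3367 in Zeb2 KO, and its part in the interferon result was not tested.

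**Figure D3:**
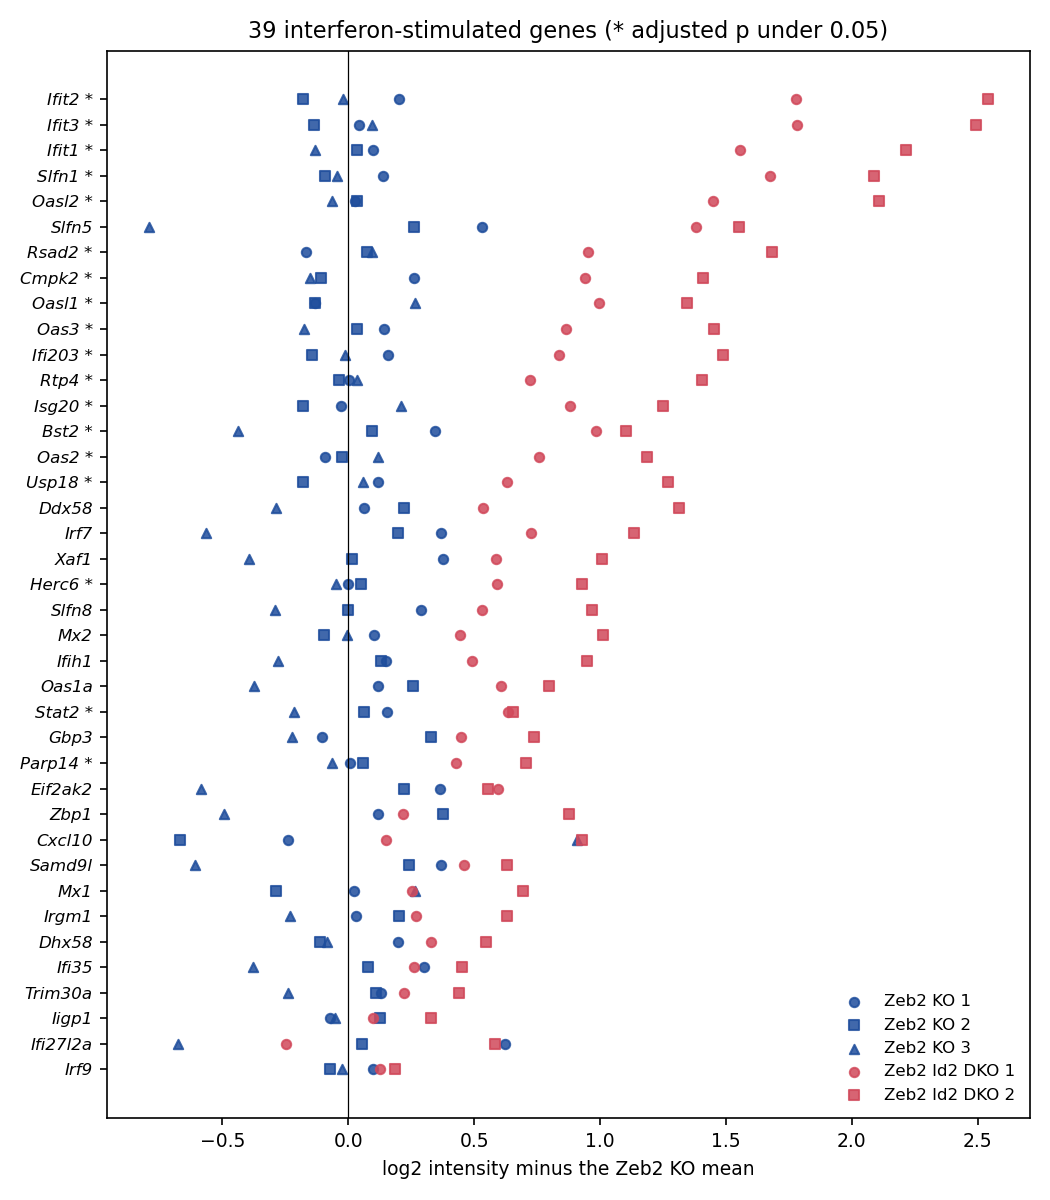
For the 39 interferon-stimulated genes, the x axis gives the log2 intensity of each array minus the mean of the 3 Zeb2 KO arrays, 1 symbol an array; asterisks mark the 18 genes that passed. Red squares (Zeb2 Id2 DKO replicate 2) lie right of red circles (replicate 1) in 38 rows, and all 39 genes have a Zeb2 Id2 DKO mean above 0.

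Among called interferon-stimulated genes whose promoter holds the element through which this response is known to act, the 3 with the smallest p are shown. Slfn1, Oasl2 and Oasl1 have smaller p than Oas3, the last of these, and no match in their promoters. Ifit2 also has a smaller p than Oas3 and is not among the genes with a match. Of the 18 members that rose, 14 had a promoter to search. Sequences run from 250 bases before to 50 bases after the gene start (RefSeq, GRCm38.p6), 5′ to 3′ on the strand of the gene, and capitals mark the core of the interferon-stimulated response element, GAAA, any 2 bases and GAAA, searched on both strands (TTTC, any 2 bases and TTTC on the other). Ifit3 (chr19:34583279-34583578, plus strand) and Ifit1 (chr19:34640639-34640938, plus strand) hold 2 matches each, and Oas3 (chr5:120777610-120777909, minus strand) holds 1.

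Ifit3: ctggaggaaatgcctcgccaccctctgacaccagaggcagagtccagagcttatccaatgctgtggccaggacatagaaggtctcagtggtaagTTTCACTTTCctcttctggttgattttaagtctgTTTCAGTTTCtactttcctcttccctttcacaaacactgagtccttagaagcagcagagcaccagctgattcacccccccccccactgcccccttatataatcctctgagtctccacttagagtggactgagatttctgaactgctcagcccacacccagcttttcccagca

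Ifit1: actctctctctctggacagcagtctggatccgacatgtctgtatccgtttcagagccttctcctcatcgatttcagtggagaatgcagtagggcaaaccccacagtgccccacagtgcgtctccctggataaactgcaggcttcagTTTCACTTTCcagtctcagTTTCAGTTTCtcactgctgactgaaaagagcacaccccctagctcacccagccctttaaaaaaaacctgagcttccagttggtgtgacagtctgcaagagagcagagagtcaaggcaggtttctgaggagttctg

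Oas3: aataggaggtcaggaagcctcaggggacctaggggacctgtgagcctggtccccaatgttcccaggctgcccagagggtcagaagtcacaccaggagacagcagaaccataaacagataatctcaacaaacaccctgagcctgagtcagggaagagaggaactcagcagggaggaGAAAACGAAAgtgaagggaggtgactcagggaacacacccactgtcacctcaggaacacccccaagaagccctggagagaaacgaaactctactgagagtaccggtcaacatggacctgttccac

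The matches start 156 and 122 bases before the start of Ifit3, 104 and 85 before Ifit1 and 75 before Oas3. The letters are the same in Ifit3 and Ifit1, TTTCACTTTC followed by TTTCAGTTTC. Of all tested genes 15614 had a promoter in the RefSeq table, and 3.32% of those held a match. It was found in 8 of 57 promoters of genes that rose (14.0%), of which 6 were interferon-stimulated, in 2 of 43 promoters of the other rises (4.65%) and in 1 of 20 of the genes that fell (5.0%), Apol7c. The whole interferon-stimulated list held it in 16 of 29 promoters (55.2%), and the members that rose in 6 of 14 (42.9%).

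E-boxes, the sequences E proteins bind, were counted in the same promoters. CAGGTG (or CACCTG on the other strand) was in 16 of 57 promoters of genes that rose (28.1%), in 3 of 20 of genes that fell (15%) and in 19.2% of all. CAGCTG was in 14.0%, 10.0% and 15.9%, and the general form CANNTG, which holds both of these, in 78.9% (45 of 57), in 10 of 20 and in 68.0%. These shares are descriptions without a test. The rises with the smallest p that hold either E-box are Slfn1 and Ifit3, whose promoter above holds CAGCTG. Slfn1 (chr11:83116570-83116869, plus strand) is shown with CAGGTG and CACCTG in capitals, and Siglech (chr7:55767934-55768233, plus strand), a pDC gene described next, was added after its values were seen.

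Slfn1: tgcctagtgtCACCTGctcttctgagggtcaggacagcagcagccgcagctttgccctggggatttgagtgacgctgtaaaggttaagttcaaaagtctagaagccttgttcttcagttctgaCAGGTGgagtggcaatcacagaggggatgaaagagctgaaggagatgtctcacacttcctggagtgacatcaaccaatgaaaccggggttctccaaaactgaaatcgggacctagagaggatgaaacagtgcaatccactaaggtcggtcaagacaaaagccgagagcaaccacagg

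Siglech: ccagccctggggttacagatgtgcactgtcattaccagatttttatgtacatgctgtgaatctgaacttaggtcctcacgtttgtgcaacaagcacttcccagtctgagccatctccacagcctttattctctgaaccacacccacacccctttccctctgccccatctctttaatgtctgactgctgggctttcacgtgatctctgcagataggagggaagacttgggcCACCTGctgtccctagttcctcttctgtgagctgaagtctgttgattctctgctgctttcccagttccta

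The matches start 240 and 127 bases before the gene start in Slfn1 and 20 before it in Siglech. A match is a run of letters and no evidence that a factor binds there.

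A small group of pDC genes rose, and most of the pDC list did not pass. Siglech, the sialic acid-binding receptor by which mouse pDCs are recognised, stood at 8.07 and 7.90 in Zeb2 Id2 DKO, 5.93, 5.99 and 6.31 in Zeb2 KO and 5.97, 6.56 and 6.42 in WT. The double-knockout arrays were the highest of all, 3.75-fold above Zeb2 KO (log2 1.91, 1.51 to 2.31, adjusted p = 0.00128), and the call held with any array left out. Cd300c, an activating receptor of the CD300 family, stood at 9.97 and 9.60 against 8.36, 7.88 and 8.16 (3.14-fold, adjusted p = 0.00292), and was lost without Zeb2 Id2 DKO replicate 1 (adjusted p = 0.055). Bst2, which serves as a pDC marker and is also interferon-stimulated, stood at 11.54 and 11.66 against 10.90, 10.65 and 10.12 (2.06-fold, adjusted p = 0.0488) and remained called in 2 of the 10 leave-outs (adjusted p up to 0.414).

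In the limma fit 3 of 28 pDC genes rose and 0 fell (12 had an unadjusted p under 0.05, and 0.366% of all genes rose), the median log2 difference was 0.25, and 22 of the 28 differences were positive (46.5% of all genes). Summed intensity of the list was 16669 to 17896 in Zeb2 Id2 DKO, 10188 to 13319 in Zeb2 KO and 11881 to 12597 in WT. This linear sum is weighted to bright genes, and the list shares Bst2 and Irf7 with the interferon-stimulated list, so it does not show a rise across pDC genes. Tcf4, the E protein that specifies pDCs, had a log2 difference of 0.19 (adjusted p = 0.832), and Spib, a pDC transcription factor, of 0.31 (0.934). The Ly49 receptor gene Klra17, a marker of mature pDCs, stood at -0.04, and Cox6a2 and Atp2a1 at -0.07 and -0.10. Irf7, the factor by which pDCs make interferon, had 0.93 (0.178), and the DNA sensor Tlr9 had 0.50 (0.184). Of the pDC genes named here only Siglech, Cd300c and Bst2 passed. For Cd300c every Zeb2 KO array lay below WT (8.57, 9.04 and 9.05). The double knockout stood above WT by 0.90 on the log2 scale (limma adjusted p = 0.0383).

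The partners of Id2 did not pass. Tcf3 stood at 8.47 and 8.41 in Zeb2 Id2 DKO and 8.44, 8.31 and 8.73 in Zeb2 KO, with overlapping arrays (log2 -0.05, adjusted p = 0.964). Tcf12 had 0.10 (0.868), and the other inhibitors Id1 and Id3 had -0.12 (0.925) and -0.16 (0.924). Of 7 E and ID protein genes only the deleted Id2 fell. Among 16 genes known as E protein targets in lymphocytes 0 passed in the limma fit (1 at an unadjusted p under 0.05), with a median of -0.02. Of all genes 0.497% passed and 1465 of 19938 had an unadjusted p under 0.05, so nothing is read from 0 of 16.

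Markers of cDC1s were checked in both groups. Xcr1, the chemokine receptor of cDC1s, stood at 11.36 and 11.47 in Zeb2 Id2 DKO and 11.71, 11.78 and 11.40 in Zeb2 KO, and Clec9a, the receptor for dead cells, at 11.87 and 11.96 against 11.82, 11.83 and 11.60. Irf8 and Batf3, the factors on which cDC1s depend, had log2 differences of -0.06 (adjusted p = 0.942) and -0.12 (0.927). Cd8a had -0.10 (0.931) and the integrin gene Itgae 0.18 (0.924), with overlapping arrays for both. Of 32 cDC1 genes 0 rose and 1 fell, Cadm1 (0.366% and 0.13% of all genes). An unadjusted limma p under 0.05 was seen in 7 of the 32, and the median was 0.09. By limma 0 of 25 cDC2 genes passed (6 at an unadjusted p under 0.05, median 0.13), and 0 of 37 dendritic cell transcription factors (8 unadjusted, median 0.02). The cDC2 genes with the smallest p were Cx3cr1 (log2 0.90, adjusted p = 0.146) and Cd7 (1.73, 0.198), and 17 of the 25 differences were positive. Cd7 passed without Zeb2 KO replicate 3 (adjusted p = 0.0208). Of antigen presentation genes 0 of 20 for MHC class I (1 unadjusted, median 0.00) and 0 of 13 for class II (1 unadjusted, median -0.01) passed, and of Toll-like receptors and adaptors 0 of 18 (5 unadjusted, median 0.17). Of all genes 0.497% passed, so 0 calls in lists of this size do not show that their genes were unchanged. The unadjusted shares of the cDC1, cDC2, transcription factor and Toll-like receptor lists lay above that of all genes (1465 of 19938).

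Further large rises were in genes of the cell surface and signalling. Plet1, a GPI-anchored surface protein, stood at 9.99 and 8.45 against 6.45, 6.99 and 7.37 (4.87-fold, log2 2.28, 1.47 to 3.09, adjusted p = 0.0245). Its double-knockout arrays lay 1.53 apart, and the call remained in 4 of 10 leave-outs, with adjusted p up to 0.108. Dapk2, a calmodulin-regulated kinase, stood at 8.82 and 8.55 against 6.69, 6.37 and 6.61 (4.38-fold, adjusted p = 0.00725), and was lost without either double-knockout array (adjusted p up to 0.107). Cd209e, a C-type lectin related to DC-SIGN, stood at 6.96 and 6.48 against 5.17, 5.31 and 5.24 (2.78-fold, adjusted p = 0.00382), with WT above Zeb2 KO at 5.38, 5.83 and 5.87. The orphan receptor Gpr82 stood at 7.63 and 7.27 against 6.36, 5.88 and 5.96 (2.6-fold, adjusted p = 0.00261). Both were lost without Zeb2 Id2 DKO replicate 1 (0.0516 and 0.0505).

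Ank1, the ankyrin that ties spectrin to the red cell membrane, stood at 9.23 and 8.82 against 7.63, 7.66 and 7.36 (2.78-fold, adjusted p = 0.00251), and its call held with any array left out. Erythroid genes were set beside it: 1 of 16, Ank1 itself, rose (0.366% of all genes), 15 had a positive difference (46.5% of all genes), 7 had an unadjusted p under 0.05 and the median was 0.49. The anion exchanger gene Slc4a1 had a log2 difference of 0.73 (adjusted p = 0.869) and the haem enzyme gene Alas2 of 0.40 (0.843). The part of red cell precursors in the Ank1 result was not tested.

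Among the falls, Apol7c, of the apolipoprotein L family, came after Id2. It stood at 7.75 and 8.98 against 10.02, 10.34 and 10.74 in Zeb2 KO, below the WT levels of 11.01, 11.30 and 11.10. The double-knockout arrays were the lowest of all but 1.23 apart (4.01-fold lower, log2 -2.0, -2.66 to -1.34, adjusted p = 0.0161), and the call was lost without Zeb2 Id2 DKO replicate 1 and without Zeb2 KO replicate 2 (adjusted p at most 0.0949). Of 6 apolipoprotein L genes it was the only one to pass, as it was among 28 genes of dendritic cell maturation, whose median was -0.06. Of all genes 0.497% passed.

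Smad3, which carries signals of TGF-beta receptors to the nucleus, stood at 7.13 and 6.90 against 8.03, 7.87 and 8.14 (2.0-fold lower, log2 -1.0, -1.24 to -0.76, adjusted p = 0.00261). Frmd4b, a FERM domain scaffold, stood at 8.57 and 8.70 against 9.75, 9.68 and 9.53 (2.03-fold lower, adjusted p = 0.00137). Both held with any array left out, and in both the WT and Nfil3 Zeb2 DKO arrays lay with Zeb2 KO. Cpne8, a copine that binds membranes in response to calcium, stood at 5.39 and 5.53 against 6.89, 6.63 and 7.07 (2.64-fold lower, adjusted p = 0.00779), and was lost without either double-knockout array (adjusted p up to 0.108). Ocstamp, a transmembrane protein of osteoclast fusion, stood at 7.94 and 8.26 against 9.28, 9.05 and 9.46 (2.25-fold lower, adjusted p = 0.00779). The chemokine gene Ccl2, which draws monocytes, stood at 6.86 and 7.35 against 8.16, 8.06 and 7.97 (1.94-fold lower, adjusted p = 0.0251), and remained called in 4 of 10 leave-outs (adjusted p up to 0.288). Ocstamp was lost without Zeb2 Id2 DKO replicate 1 (adjusted p = 0.117).

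Most genes of the T cell list had a negative difference: 3 of 18 were positive (46.5% of all genes). In the list 1 gene passed as a fall and 1 as a rise (0.13% and 0.366% of all genes). Icos, a costimulatory receptor of activated T cells, stood at 6.14 and 6.50 against 7.24, 7.44 and 7.89 (2.3-fold lower, adjusted p = 0.0186). Cd6, a scavenger-family receptor that binds activated leukocyte adhesion molecule, stood at 8.63 and 8.83 against 7.81, 7.71 and 7.29 (2.19-fold higher, adjusted p = 0.0116). The median of the list was -0.20, 5 of its genes had an unadjusted p under 0.05, and the CD3 chains Cd3d and Cd3g had log2 differences of -0.35 (adjusted p = 0.467) and -0.53 (0.30). Both calls were lost without either double-knockout array, and that of Icos also without Zeb2 KO replicate 2 (adjusted p up to 0.266 and 0.176).

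Smaller falls among the 15 largest of called genes were in St6gal1, which adds sialic acid to glycoproteins, Esyt3, a tether of endoplasmic reticulum to the plasma membrane, Simc1, Cldnd1 and Arhgap42. Their log2 differences ran from -0.89 to -0.79 with adjusted p from 0.00784 to 0.0447. None of these 5 held in all 10 leave-outs. Esyt3 was the weakest of them, at 8.10 and 7.83 against 8.72, 8.68 and 9.11, called in 1 of 10 leave-outs (adjusted p up to 0.45).

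In several genes that fell, Zeb2 KO already lay below WT. Adgrl3 stood at 7.90, 8.15 and 7.35 in WT, so that its levels stepped down from WT to Zeb2 KO (log2 -1.28, adjusted p = 0.0508) and again to the double knockout (-1.20). Zfyve9, the anchor of Smad proteins at TGF-beta receptors, stood at 6.76, 7.08 and 6.93 in WT, 6.04, 6.08 and 5.97 in Zeb2 KO and 5.38 and 5.43 in Zeb2 Id2 DKO. Both of its steps passed (-0.89, adjusted p = 0.0255, and -0.63, adjusted p = 0.0295), the second in 5 of 10 leave-outs (adjusted p up to 0.322). Adam22 had steps of -0.88 (0.0571) and -0.96, and St6gal1 of -0.47 (0.276) and -0.89. Cd6 stepped upward, by 0.70 (0.212) and 1.13. Ltbp2, which binds the extracellular matrix, took the other course: 8.34, 8.92 and 8.35 in WT, 7.69, 7.47 and 7.76 in Zeb2 KO and 8.75 and 8.48 in Zeb2 Id2 DKO, so the double-knockout arrays lay within the WT range (difference from WT 0.08, adjusted p = 0.969). Its rise from Zeb2 KO (0.98, adjusted p = 0.0437) remained called in 2 of 10 leave-outs (adjusted p up to 0.497). These steps share the Zeb2 KO arrays, whose error enters both with opposite sign.

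Whether a change went with the loss of Id2 and not of a second gene in general was asked by setting Zeb2 Id2 DKO against Nfil3 Zeb2 DKO, which is the difference between both changes from Zeb2 KO. In that comparison 158 genes passed (0.792%), 116 higher (0.582%) and 42 lower (0.211%) without Id2. It shares the double-knockout arrays with the first, so it is no independent support. Adgrl2 differed by 2.76 (adjusted p = 4.11e-06), Carmil1 by 2.84 (4.79e-05), Lrrc4c by 2.24 (6.61e-05), Ank1 by 2.15 (0.000375), Ifit3 by 2.26 (0.000403) and Siglech by 1.28 (0.0149). Among falls Apol7c differed by -2.78 (0.00362), Cpne8 by -1.77 (0.00284), Smad3 by -1.05 (0.00288) and Adgrl3 by -1.39 (0.0114). For these genes the change without Id2 was larger than without Nfil3. Markers of other cells also differed between the double knockouts. The median difference was 1.07 for the neutrophil list and 1.07 for the erythroid list, which holds Ank1. The part of such cells in this comparison was not tested. For Cd209e (0.86, adjusted p = 0.0637), Ltbp2 (0.35, 0.553), Bst2 (0.87, 0.0967), Simc1 (-0.52, 0.0891) and Cldnd1 (-0.52, 0.196) the difference did not pass, which does not show that both losses act alike.

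Markers of other cells the sort could hold were counted in the same fit. By limma 0 of 16 NK cell genes (4 at an unadjusted p under 0.05, median -0.15) and 0 of 19 B cell genes (2 unadjusted, median 0.12) passed, and so did 0 of 21 monocyte genes (7 unadjusted, median 0.21) and 0 of 23 red pulp macrophage genes (1 unadjusted, median 0.00). Of all genes 0.497% passed, so 0 calls in lists of this size do not show that their genes were unchanged. The unadjusted shares of the NK cell, B cell and monocyte lists lay above that of all genes (1465 of 19938). The monocyte gene with the smallest p, Ms4a6c, stood at 10.02 and 10.02 against 9.50, 9.37 and 8.95 (log2 0.75, adjusted p = 0.0545). The highest difference in that list was 1.23, in Ms4a4c, and 14 of its 21 differences were positive. Klrd1 and Klra3, the NK cell genes with the smallest p, had 1.14 (adjusted p = 0.121) and -0.54 (0.176), and 4 of the 16 NK cell differences were positive. Of 27 chemokines and their receptors, a list without the fallen Ccl2, 1 rose, Cxcr3, the receptor for interferon-induced chemokines, at 11.32 and 11.31 against 10.85, 10.43 and 10.60 (adjusted p = 0.0444), a call that remained in 1 of 10 leave-outs (adjusted p up to 0.386). Beside this 1 rise in the chemokine list, 0.366% of all genes rose. By the same limma fit 0 of 31 cell cycle genes (0 unadjusted, median -0.09), 0 of 25 immediate early and stress genes (4 unadjusted, 0.06), 0 of 22 C/EBP and clock factors (3 unadjusted, 0.01) and 0 of 24 genes of glutathione and redox control (3 unadjusted, -0.08) passed.

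**Figure D4:**
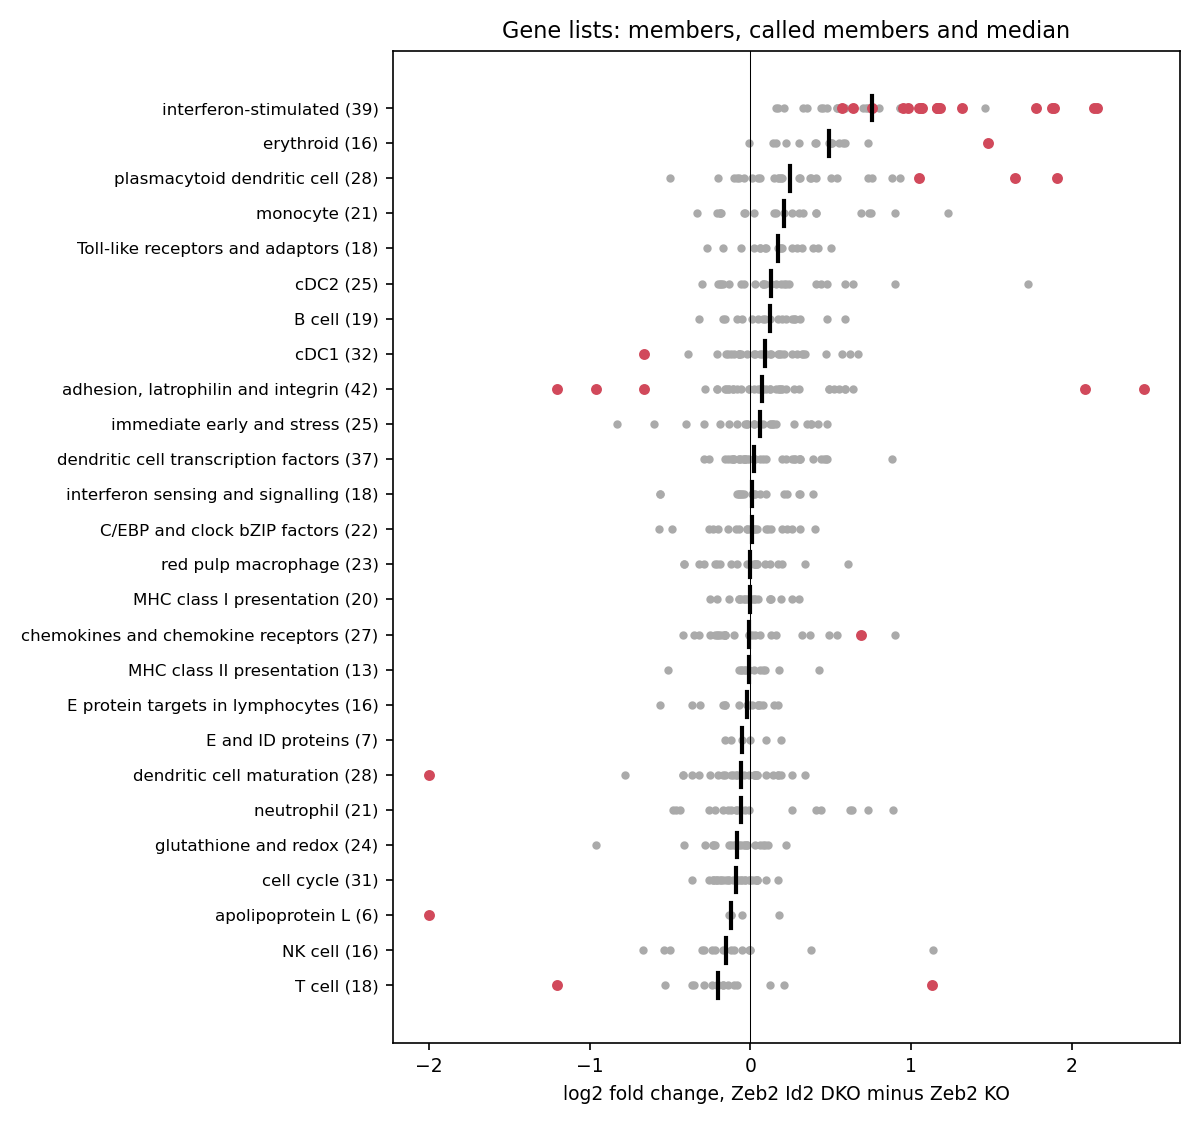
Each row is a gene list with its number of measured genes in brackets; points give the log2 fold change of each member between Zeb2 Id2 DKO and Zeb2 KO on the x axis (red where adjusted p is under 0.05, with Id2 itself left off) and black bars the list median. The interferon-stimulated list has the highest median (0.76) and 18 red points, followed by the erythroid list (0.49) and the pDC list (0.25).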

How the data were processed

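Splenic cDC1s of 4 genotypes were measured on 10 Affymetrix arrays. The deposited values are linear intensities, which the authors made with RMA in Affymetrix Expression Console, per the submitters' processing notes. Their annotation version is unknown. Of 28853 probe sets 21789 named 1 gene, and each gene was read from its brightest set by mean (19938 genes, none filtered by level). Log2 was taken, a mean per genotype was fitted with limma 3.58.1 (R 4.3.3) over all 10 arrays (6 residual degrees of freedom), and p-values were adjusted over all genes by Benjamini-Hochberg. Named genes were the targeted genes, a panel of 12 and the 15 largest rises and falls. Of each list they were up to 6 called members or the 2 with the smallest p, the latter given for some lists only. Other called genes and the remaining list members were named after their values were seen. Members, lists and rules were chosen with earlier results of these data known, so list shares set beside those of all genes are descriptions and no test. Replicate numbers did not pair the samples. Array number limits precision.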

Additional observations from a re-analysis of the deposited data

How the results depend on the processing

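The number of genes called between Zeb2 Id2 DKO and Zeb2 KO, 99, depended on the arrays in the fit: it was 20 with the 5 arrays of both groups alone, 256 with array weights (0.187 for Zeb2 KO replicate 3), 43 with a 2-fold minimum and 25 to 148 with 1 array left out. Mean of probe sets, a filter on dim genes (6 log2), repeated quantile normalization, median centring and a trended robust prior gave 89 to 105. Between Zeb2 Id2 DKO and Nfil3 Zeb2 DKO, 158 calls became 833 with the 4 arrays alone, 1139 with weights, 73 at 2-fold and 23 to 704 with 1 array left out (704 without Zeb2 KO replicate 3, 23 without Nfil3 Zeb2 DKO replicate 1). With the replicate number as a block the counts were 72 and 182; deviations of same-numbered arrays correlated at -0.133 and -0.021. Of the genes named in the text, every called one kept its direction under these alternatives, and 282 of the 1148 values of called genes lost the call. Directions turned only in genes that were not called. With 1 array left out Cd8a ran from -0.24 to 0.04, Cox6a2 from -0.14 to 0.04, Id1 from -0.19 to 0.00, Itgae from -0.14 to 0.51, Klra17 from -0.10 to 0.03, Nfil3 from -0.02 to 0.12 and Tcf3 from -0.14 to 0.07. Array weights gave Cox6a2 0.01 and Tcf3 0.07, the block gave Klra17 0.06 and repeated quantile normalization gave Nfil3 0.00. Ms4a6c passed in 4 alternatives and Irf7 with array weights. Signal over background limits the folds of dim probe sets such as that of Lrrc4c.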

Other observations

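The genes in this paragraph and the next were picked singly from the called genes after their values were seen, from no list, so they show nothing about a pathway or group. Pmepa1, a target and inhibitor of TGF-beta signalling, stood at 9.04 and 9.06 in Zeb2 Id2 DKO and at 8.43, 8.65 and 8.60 in Zeb2 KO (log2 0.49, adjusted p = 0.0442; called in 1 of 10 leave-outs, with adjusted p up to 0.387). Cd84, a homophilic receptor of the SLAM family, stood at 7.18 and 7.20 against 6.06, 6.04 and 5.73 (log2 1.25, adjusted p = 0.00784), and the orphan receptor Gpr141 at 8.73 and 8.23 against 7.28, 7.37 and 6.89 (1.30, 0.0124). Lilra6, an immunoglobulin-like receptor (1.29, 0.00594), the nucleotide receptor P2ry12 (0.80, 0.00711), the lysophosphatidic acid receptor Lpar3 (0.91, 0.00779) and the interleukin-13 receptor chain Il13ra1 (0.96, 0.0101) rose as well. Each of these 6 calls was lost without Zeb2 Id2 DKO replicate 1 (adjusted p at most 0.168), and those of Cd84, Lilra6, P2ry12 and Il13ra1 also without replicate 2.

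Xdh, xanthine dehydrogenase, stood at 8.11 and 8.71 against 7.45, 7.20 and 6.74 (log2 1.28, adjusted p = 0.0281) and was called in 2 of 10 leave-outs (adjusted p up to 0.33). Upp1, uridine phosphorylase, rose by 0.92 (0.00848; up to 0.133 without Zeb2 Id2 DKO replicate 1), and Kmo, which acts on kynurenine, by 0.73 (0.043; called in 2 of 10, up to 0.403). Ada, adenosine deaminase, fell by 0.51 (0.0389; called in 2 of 10, up to 0.407). Further falls were in the homeobox gene Meis1, the blood-cell GTPase gene Rac2 and the cotransporter gene Slc12a2, with log2 differences of -0.61 (0.0417), -0.59 (0.043) and -0.76 (0.00779); Meis1 and Rac2 were each called in 1 of 10 leave-outs (up to 0.497 and 0.517), and Slc12a2 was lost without Zeb2 Id2 DKO replicate 1 (0.117).

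Position near the deleted gene was looked at. Of the 40 tested genes nearest to Id2 in the order of the GRCm38.p6 gene table, 20 to each side, 2 were called (0.497% of all genes), Rsad2 and Cmpk2, the second and the third tested gene on one side of Id2. Both are interferon-stimulated genes, and 16 of the 18 interferon-stimulated genes that rose lie outside this window. For Rsad2 and Cmpk2 the part of position cannot be told apart from the interferon shift and was not tested.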
